A study of Mus musculus with 2 samples.

Results

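*Il1b*-expressing microglia, here the cells with at least 2 counts of the messenger RNA of interleukin-1β, made up 224 of the 42766 cells sorted from the brains of PSAPP mice. Another 694 cells under the same border macrophage limit, given next, had 1 count and were not taken. A cell was taken when it held at least 2 counts of *Il1b* (each count is 1 captured RNA molecule) and fewer than 5 counts in all of *Mrc1*, *Pf4*, *Ms4a7*, *Cd163* and *Cbr2*, which mark macrophages of the brain's borders. By this rule 87 of 18374 cells were *Il1b*-expressing in the vehicle (VEH) library and 137 of 24392 in the lemborexant (LEM) library. They were compared with the 17993 VEH and 23743 LEM cells that had 0 *Il1b* counts under the same border macrophage limit. Because the counts of these same cells chose the members, every contrast with the *Il1b* = 0 cells is a description and carries no test.

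All mice carried the APPswe/PS1δE9 transgenes, which make them lay down amyloid-β plaques, and no library came from mice without them. Both treatments ran for 30 days by daily oral gavage from 9 to 10 months of age, with VEH alone or with LEM, a dual orexin receptor antagonist given for insomnia, at 30 mg/kg/day. For each treatment, cortex and hippocampus of 1 hemisphere from 5 mice of both sexes were pooled, live CD45lo CD11b+ cells were sorted from cold-dissociated tissue, and 1 single-cell RNA library was made. With 1 library per treatment there was no replicate, so no p-value is given, and the 95% intervals below are exact intervals that cover counting error only, not the spread between mice or between cells.

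Interleukin-1β is a secreted cytokine that drives inflammation and fever and, in the brain, is made mainly by microglia and by infiltrating myeloid cells. Its production takes separate steps: a priming signal, such as one through Toll-like or TNF receptors, lets NF-κB and C/EBPβ transcribe *Il1b*, and an inflammasome such as NLRP3 with the adaptor ASC (*Pycard*) then activates caspase-1, which cuts the inactive precursor. Released interleukin-1β, like the interleukin-1α encoded by *Il1a*, binds the receptor IL1R1 with its partner IL1RAP, while the antagonist encoded by *Il1rn* and the decoy receptor encoded by *Il1r2* oppose it. Messenger RNA counts bear on the priming step and not on cleavage or release.

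*Il1b* (ENSMUSG00000027398.13) lies on the minus strand of chromosome 2, at 129364570 to 129371139 in GRCm38, and *Il1a* lies 54598 bases away on the same strand at 129299610 to 129309972. The letters just upstream of *Il1b* and of 6 genes described below are printed because the members are defined by one of these genes and differed from the other cells in the rest. Each is the 250 bases before the start of transcription, 5′ to 3′ on the gene's own strand, from RefSeq on GRCm38.p6, with capitals for matches, on either strand, to the NF-κB consensus, C/EBP (TTNNGNAA), AP-1 (TGACTCA or TGAGTCA) or CRE (TGACGTCA).
Il1b (chr2:129371140-129371389, minus strand): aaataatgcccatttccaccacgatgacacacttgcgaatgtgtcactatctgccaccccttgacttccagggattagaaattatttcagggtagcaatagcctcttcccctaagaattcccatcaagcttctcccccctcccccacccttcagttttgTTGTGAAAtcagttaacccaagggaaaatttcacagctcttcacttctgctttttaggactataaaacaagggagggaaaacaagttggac
Il1a (chr2:129309973-129310222, minus strand): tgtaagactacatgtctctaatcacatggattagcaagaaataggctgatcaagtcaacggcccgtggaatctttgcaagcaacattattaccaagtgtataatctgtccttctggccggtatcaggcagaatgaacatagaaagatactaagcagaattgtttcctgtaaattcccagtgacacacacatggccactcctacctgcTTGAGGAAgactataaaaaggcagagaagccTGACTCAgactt
Tnf (chr17:35202008-35202257, minus strand): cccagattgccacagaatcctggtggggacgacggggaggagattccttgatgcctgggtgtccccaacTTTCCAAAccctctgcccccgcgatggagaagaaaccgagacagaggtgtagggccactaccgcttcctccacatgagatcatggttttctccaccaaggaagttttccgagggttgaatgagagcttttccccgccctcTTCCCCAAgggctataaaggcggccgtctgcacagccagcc
Ccl3 (chr11:83649379-83649628, minus strand): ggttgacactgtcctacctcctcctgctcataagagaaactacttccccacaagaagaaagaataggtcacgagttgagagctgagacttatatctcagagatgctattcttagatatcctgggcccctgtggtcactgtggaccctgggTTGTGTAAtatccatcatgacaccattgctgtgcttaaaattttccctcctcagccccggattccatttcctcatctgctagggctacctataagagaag
Nfkbia (chr12:55492648-55492897, minus strand): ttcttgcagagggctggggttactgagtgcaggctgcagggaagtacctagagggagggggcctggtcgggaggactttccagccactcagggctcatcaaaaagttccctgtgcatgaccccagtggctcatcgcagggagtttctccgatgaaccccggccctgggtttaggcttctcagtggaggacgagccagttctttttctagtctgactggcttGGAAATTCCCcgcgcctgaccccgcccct
Cxcl10 (chr5:92348890-92349139, minus strand): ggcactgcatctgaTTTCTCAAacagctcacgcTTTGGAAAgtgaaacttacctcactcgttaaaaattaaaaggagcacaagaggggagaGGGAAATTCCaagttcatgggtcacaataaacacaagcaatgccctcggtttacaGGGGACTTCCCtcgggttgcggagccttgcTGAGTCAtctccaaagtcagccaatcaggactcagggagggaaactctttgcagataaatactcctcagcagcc
P2ry12 (chr3:59262986-59263235, minus strand): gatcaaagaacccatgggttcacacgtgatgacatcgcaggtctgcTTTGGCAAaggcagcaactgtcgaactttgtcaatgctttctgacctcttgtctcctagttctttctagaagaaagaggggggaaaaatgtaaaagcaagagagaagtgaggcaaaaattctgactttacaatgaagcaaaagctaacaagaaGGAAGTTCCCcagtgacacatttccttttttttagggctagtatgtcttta

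The *Il1b* window held 1 match, the C/EBP letters TTGTGAAA at 91 to 84 bases before the start, and no match to the other motifs. The *Il1a* window held a C/EBP match and, at 12 to 6 bases before the start, an AP-1 match, *Tnf* held 2 C/EBP matches and *Ccl3* held 1. The NF-κB consensus was matched at 29 to 20 bases before the start of *Nfkbia*, which encodes the inhibitor IκBα, and at 3 places in *Cxcl10*, where 2 of them overlap by all but 1 base. *P2ry12*, a gene of resting microglia, also held 1 NF-κB match at 51 to 42 bases before its start. Of the 32851 promoters of this length in the RefSeq table, 7.25% held the NF-κB consensus, 36.8% C/EBP, 4.46% AP-1 and 1.55% CRE. Among the 23 of 28 listed NF-κB target and regulator genes that had a promoter in the table, 11 held the NF-κB consensus (47.8%), against 2 of 20 genes of the disease-associated microglia list (10%). A listed gene counted if any of its promoters held a match, while the 7.25% is a share of promoters, so the units differ. The list was chosen as NF-κB genes, and 6 of the 23 held C/EBP letters (26.1%). A match describes letters and is not evidence that a factor binds there, and a window without one says nothing about sites elsewhere.

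The libraries held 116229678 (VEH) and 160752298 (LEM) counts over 32285 genes, with a median of 5971 and 6034 counts per cell. The cell names are treatment names with running numbers, so barcodes shared between libraries could not be counted.

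*Il1b* RNA was rare and unevenly spread. It amounted to 663 counts in VEH and 1107 in LEM, or 5.70 CPM (CPM scales the counts of each group of cells to the same total, 5.28 to 6.16) and 6.89 CPM (6.49 to 7.30) of all RNA counted. Over both libraries 700 cells had 1 count, 110 had 2, 63 had 3 or 4, 35 had 5 to 9 and 21 had 10 or more, the last group alone holding 24.5% of all *Il1b* counts. The members, with a median of 3 counts, held 60.8% of the *Il1b* counts in VEH and 59.0% in LEM. The 5 highest cells of each library held 16.4% and 16.0%, and the highest single cells had 28 counts in VEH and 67 in LEM.

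**Figure D1:**
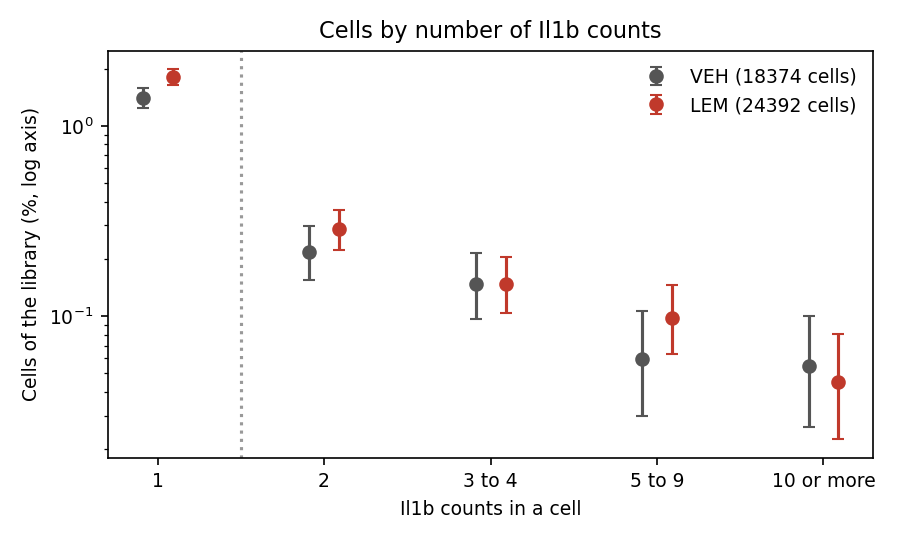
Cells by their number of *Il1b* counts in the VEH and LEM libraries, as a percentage of all cells on a log axis, with exact 95% intervals of counting error. Among cells with a count, those with 1 were the most frequent (1.40% in VEH and 1.81% in LEM), and those with 10 or more made up 0.0544% and 0.0451%.

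A threshold in raw counts favours deeply sequenced cells, and the members were deeper than the rest. They had a median of 7499 counts and 2885 genes in VEH and 7798 counts and 2933 genes in LEM, against 5948 counts and 2553 genes, and 6007 counts and 2596 genes, in the *Il1b* = 0 cells. With the cells of each library ordered by total count and cut into 4 equal groups, from the shallowest to the deepest, the share of members was 0.196%, 0.305%, 0.501% and 0.892% in VEH and 0.230%, 0.410%, 0.492% and 1.12% in LEM. For this reason the *Il1b* = 0 cells were weighted to the members' distribution over 10 depth bins. This holds for every log2 ratio of members over *Il1b* = 0 cells below and for the CPM beside it. Cell type markers and the classes by *Il1b* count are given without weighting.

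The cells on either side of the threshold differed by degree. The 107 members with exactly 2 *Il1b* counts and the 694 cells with 1 count had median depths of 7376 and 6980 counts. *Ccl4*, a chemokine gene, stood at 1707 CPM just inside and 959 CPM just outside, *Cd74*, the invariant chain of MHC class II, at 1429 and 588 CPM, *Il1a* at 376 and 334 CPM, *Tnf* at 74.0 and 55.2 CPM, and *P2ry12* at 2994 and 3659 CPM. On the border macrophage side, 209 members had no count of the 5 genes, 12 had 1, 2 had 3 and 1 had 4. That last cell, from LEM, was rich in *Cd74* (32263 CPM). The 2 cells with at least 2 *Il1b* counts and 5 to 9 border macrophage counts had *Cd74* at 16266 CPM together.

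The members carried the identity of microglia, which the sort and the leaving out of clusters of other cell types made likely beforehand. Of the 224 cells, all 224 had counts of *Csf1r*, the receptor on which microglia depend for survival, 223 of the complement gene *C1qa*, 221 of *P2ry12*, 221 of the fractalkine receptor gene *Cx3cr1* and 211 of *Tmem119*. Counts of *P2ry12* were present in 97.7% of the VEH and 99.3% of the LEM members, against 98.7% and 98.4% of the *Il1b* = 0 cells, and *Tmem119* in 96.6% and 92.7% against 97.3% and 97.4%. *Sall1*, another microglial marker, was counted in 163 of the 224 members. Those were 80.5% of VEH and 67.9% of LEM members, against 78.1% and 80.3% of the *Il1b* = 0 cells. The summed level of 9 microglial markers was 38295 CPM in VEH and 38224 CPM in LEM members, below the 42554 and 43367 CPM of the *Il1b* = 0 cells.

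Neutrophils are a well-known source of *Il1b*, and the neutrophil genes *S100a8* and *S100a9* were at 0 in the members. Cells were sorted as CD45lo CD11b+, and the paper describes leaving out clusters of other cell types. Values near 0 were thus likely before this check. Not 1 of the 224 cells held a count of *S100a8* or *S100a9*, the calprotectin genes that are among the most abundant in neutrophils, and 0 of 224 allows a share of cells with a count of up to 1.34% by a limit of 3 cells (3.45% of the VEH and 2.19% of the LEM members). The Clopper-Pearson upper limits were 1.63%, 4.15% and 2.66%. In the *Il1b* = 0 cells, 0 of 17993 VEH and 14 of 23743 LEM cells (0.0590%) held a count of either gene, and 1 of these held more than 1. Of 14 neutrophil markers, 12 in VEH and 11 in LEM were at 0 in the members, *Ly6g*, *Retnlg*, *Cxcr2* and *Mmp9* among them. *Csf3r*, the receptor for G-CSF, was the exception. It was found in 87.4% of VEH and 83.9% of LEM members at 356 and 319 CPM, but also in 78.3% and 81.7% of the *Il1b* = 0 cells at 323 and 354 CPM. *Camp* (2 counts in 2 LEM cells) and *Trem1* (1 count in each library) completed the list. Leaving out every cell with a *S100a8* or *S100a9* count removed 0 members.

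Other cell types were scarce among the members as well. The 5 border macrophage genes, which the rule limits, summed to 12.006 CPM in VEH and 10.7 CPM in LEM, against 2.64 and 2.05 CPM in the *Il1b* = 0 cells. The 10 monocyte markers summed to 25.3 and 35.5 CPM against 10.6 and 12.99 CPM, with *Ly6c2* and *Chil3* at 0 and *Ccr2*, the monocyte chemokine receptor, at 16.0 and 9.07 CPM against 4.55 and 4.65 CPM. Their level was thus above that of the *Il1b* = 0 cells in both libraries, and the part of such RNA in the gene differences below was not tested. Dendritic cell markers summed to 9.34 and 7.42 CPM, below the 10.4 and 13.2 CPM of the *Il1b* = 0 cells, and T and NK cell markers to 1.33 and 0 CPM. A single VEH member held 526 of the counts behind the choroid plexus sum of 704 CPM in VEH, which was 0.825 CPM in LEM. Astrocyte markers summed to 5.34 and 5.77 CPM against 3.02 and 3.81 CPM. Endothelial markers summed to 13.3 against 14.9 CPM in VEH and 21.4 against 11.6 CPM in LEM, where *Flt1* was counted in 10 members. B cell, neuron and oligodendrocyte markers were not above the *Il1b* = 0 level in both libraries.

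Free RNA and merged cells were gauged in the same way. The 192 cells with at least 100 counts of *Ttr*, a choroid plexus gene, held at least 1 *Il1b* count in 1.56% (0.323 to 4.50%) and at least 2 in 0.521%, at a median of 8517 counts, and all other cells in 2.18% and 0.536% at 6000 counts. These cells also held microglial RNA (a median of 18 *P2ry12* counts), so they are not free of microglia, and their shares could not be told apart from those of the rest at this number. Scrublet, which scores resemblance to simulated doublets, marked 11.5% of VEH and 14.6% of LEM members, near the 13.1% and 12.7% of the *Il1b* = 0 cells. Cells with both *Xist* and Y-linked counts, which the pooling of male and female mice makes a sign of merged cells, were 8.05% of VEH and 16.8% of LEM members against 5.23% and 7.06%. Their part in the results was not tested beyond the values given without them.

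*Il1b*-expressing microglia were 0.473% of the cells in VEH (0.379 to 0.584%) and 0.562% in LEM (0.472 to 0.664%), a log2 ratio of LEM over VEH of 0.25 whose interval, -0.15 to 0.65, included 0. At least 1 *Il1b* count was found in 344 VEH and 574 LEM cells, 1.87% (1.68 to 2.08%) and 2.35% (2.17 to 2.55%), and here the log2 ratio of 0.33 had an interval of 0.13 to 0.53. At higher thresholds the interval again spanned 0, with 48 and 69 cells at 3 or more counts (0.11, -0.44 to 0.68) and 21 and 35 cells at 5 or more (0.33, -0.49 to 1.18). When every cell was thinned to 2000 counts, the expected share with at least 2 *Il1b* counts was 0.139% and 0.155%, and the log2 ratio of 0.16 had an interval of -0.63 to 0.97. The share with at least 1 count after thinning was 0.753% and 0.907% (0.27, -0.06 to 0.60). The direction was the same in each sex, with 0.475% of VEH and 0.511% of LEM female cells (0.11, -0.62 to 0.86) and 0.488% and 0.544% of male cells (0.16, -0.43 to 0.75). Without cells that held both *Xist* and Y-linked counts the ratio was 0.13 (-0.29 to 0.56), and without Scrublet doublets 0.19 (-0.24 to 0.62). All these ratios were above 0, and a difference in the share of members was not detectable at this depth. The level of *Il1b* over all cells gave a log2 ratio of 0.27 (0.13 to 0.41), beside 0.20 (-0.07 to 0.48) for the cells called female and 0.40 (0.21 to 0.60) for those called male.

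**Figure D2:**
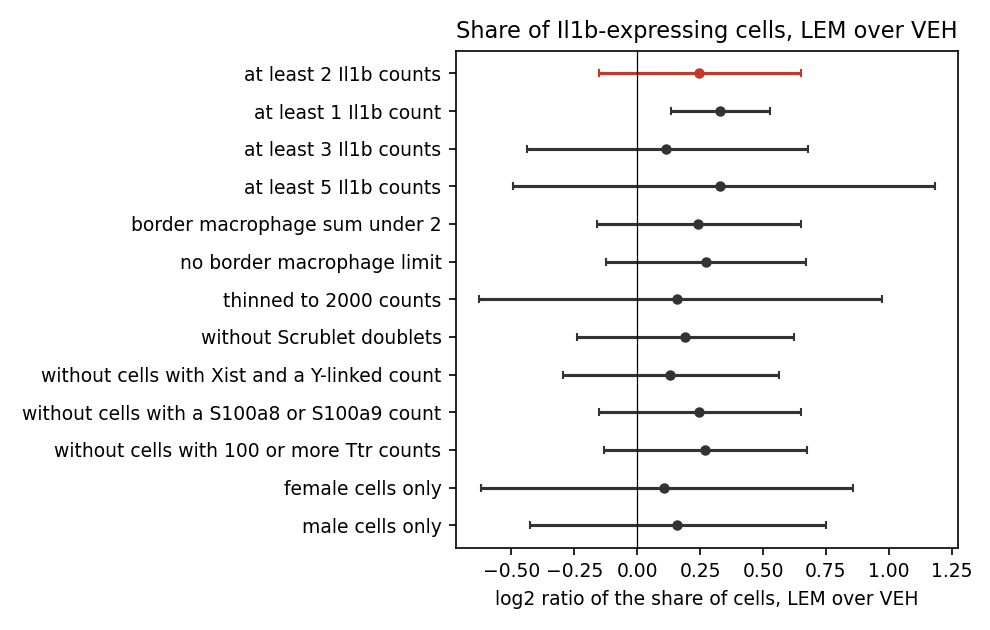
Log2 ratio of LEM over VEH of the share of *Il1b*-expressing microglia under 13 ways of choosing the cells, with 95% intervals of counting error, which after thinning use the expected number of cells. Every point lies above 0, and the interval excludes 0 for at least 1 *Il1b* count (0.33) and spans it for the members as defined (0.25, in red) and all others.

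Beside *Il1b*, the members carried more RNA of chemokines, of NF-κB targets, of MHC class II and of disease-associated and interferon-response genes than *Il1b* = 0 cells of equal depth, with 0 of 13 inflammasome genes and 1 of 24 genes of resting microglia lower. A gene was compared where it was detected in at least 2% of cells on average, and counted as higher or lower where members and *Il1b* = 0 cells differed at least 1.5-fold the same way in both libraries. Of 11008 genes compared, 294 were higher (2.67%) and 260 lower (2.36%), and the median log2 ratio over all of them was -0.09. With normalisation by the median of ratios instead of total counts, 353 were higher and 188 lower. When each gene was compared without its highest cell in each library, 148 were higher and 813 lower around a median of -0.24. That alternative takes a cell from the members alone, so it lowers a gene's ratio by construction unless no count is left. The detection minimum is an average of members and *Il1b* = 0 cells, so a rare gene can pass it through the members alone and is then likely to be higher. The list counts below are therefore descriptions, to be read beside these shares and for the genes compared only. With a minimum of 10%, 5 of 6 chemokines, 11 of 22 NF-κB genes, 2 of 5 MHC class II genes, 8 of 18 disease-associated genes and 7 of 13 interferon-response genes were higher. Of all genes compared at that minimum, 1.52% were higher.

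**Figure D3:**
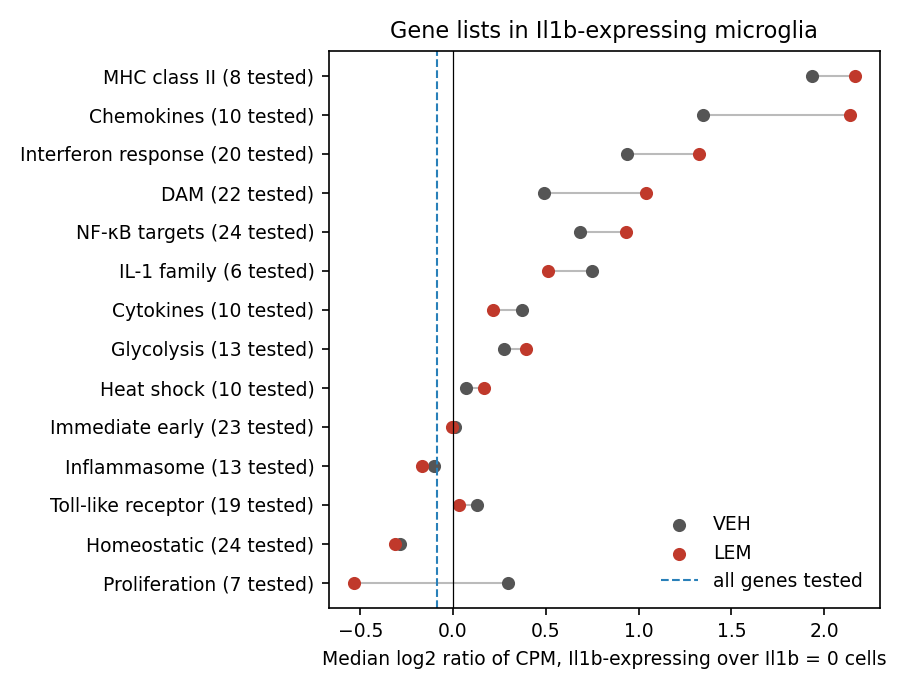
Median log2 ratio of *Il1b*-expressing microglia over *Il1b* = 0 cells at equal depth for each gene list, in the VEH and the LEM library. MHC class II genes and chemokines have medians of 2.06 and 1.64 over both libraries (0.60 and 1.53 with a detection minimum of 10%), the inflammasome list sits at -0.07 and genes of resting microglia at -0.31, beside -0.09 for all genes compared.

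Chemokines, the secreted proteins that draw in other leukocytes, were higher at 8 of 10 compared and lower at 0, with a median log2 ratio of 1.64 (1.35 in VEH and 2.14 in LEM). *Ccl4* stood at 2202 CPM in VEH members against 578 CPM in *Il1b* = 0 cells, and at 2838 against 494 CPM in LEM, log2 ratios of 1.93 (1.86 to 2.001) and 2.52 (2.47 to 2.57). Its neighbour and close relative *Ccl3*, which like *Ccl4* encodes a macrophage inflammatory protein, stood at 1269 against 467 CPM and 1501 against 436 CPM (1.44 and 1.78). Both libraries thus had the 2 genes more than 2-fold higher. The monocyte attractant gene *Ccl2* (358 against 58.2 CPM and 299 against 57.4 CPM, log2 ratios of 2.62 and 2.38) and *Ccl7* (77.4 against 4.85 and 59.4 against 3.28 CPM, 3.99 and 4.18) were higher too. *Ccl7* was counted in 8 VEH and 9 LEM members, and *Ccl2* in 28 and 42. *Ccl12* differed more between the libraries, at 450 against 264 CPM in VEH and 1135 against 261 CPM in LEM (0.77 and 2.12), and 336 of its 1376 counts in LEM members came from 1 cell. *Cxcl10*, an interferon-induced T cell attractant, had the highest mean ratio of the genes named here (3.72 and 5.09) and few cells behind it. It was counted in 3 VEH and 8 LEM members, with 98 of 120 and 178 of 370 counts in the highest cell, and without that cell the mean log2 ratio was 2.71 in place of 4.41. *Cxcl16* (1.25 and 1.44) and *Ccl5* (1.18 and 2.16, a mean of 1.67 that was 0.88 without its highest cell in each library) were also higher, while *Ccl9* (0.06 and 0.97) was not called. Nor was *Ccl24*, with 3 counts in VEH and 0 in LEM members. *Cxcl1*, *Cxcl2*, *Cxcl9* and *Cxcl14* were too rare to compare.

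Among the interleukin-1 family and its receptors, 2 of 6 genes compared were higher and 0 lower, with a median of 0.67. *Il1a*, which encodes the other agonist of IL1R1, stood at 540 CPM in VEH members against 242 CPM in *Il1b* = 0 cells and at 518 against 260 CPM in LEM, log2 ratios of 1.16 (1.01 to 1.30) and 0.99 (0.88 to 1.11). As many as 73 of 87 VEH and 110 of 137 LEM members held a count of it. *Il33*, an alarmin gene, was higher at 48.0 against 18.3 CPM in VEH and 19.0 against 12.3 CPM in LEM (1.39 and 0.62). It rested on few cells, with 36 counts in 11 VEH members, 14 of them in 1 cell. Its mean log2 ratio of 1.01 was 0.43 without the highest cell in each library, 0.11 in male cells, and -0.14 outside the DAM, MHC class II and interferon-response states described below. Without the highest cell of each gene, 1 of the 6 genes was higher, beside 1.34% of all genes compared, and the list's median was 0.10. *Il18*, whose product is cut by caspase-1 as well, was not called at 61.4 against 67.3 CPM and 64.3 against 74.8 CPM (-0.13 and -0.22). The receptor genes *Il1r1* (0.68 and 0.40) and *Il1rap* (0.81 and -0.16) were not called. *Il1rn*, *Il1r2*, *Sigirr* and *Il18r1* were too rare to compare.

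The genes of the cleaving step were near the level of the *Il1b* = 0 cells. Of 13 inflammasome genes compared, 0 were higher and 0 lower, with a median of -0.07. *Nlrp3*, the sensor, stood at 84.0 against 91.6 CPM in VEH and 97.3 against 94.9 CPM in LEM, log2 ratios of -0.12 (-0.51 to 0.23) and 0.04 (-0.24 to 0.30). *Casp1* gave 0.27 (-0.23 to 0.72) and -0.01 (-0.42 to 0.37). The adaptor gene *Pycard* was below the *Il1b* = 0 level without reaching 1.5-fold, at -0.35 (-0.64 to -0.07) and -0.34 (-0.55 to -0.14). *Gsdmd*, which encodes the pore that releases the cytokine, gave -0.07 and -0.38, and *Casp4* 0.88 and 0.36.

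Of 10 other cytokine genes compared, 3 were higher and 0 lower, with a median of 0.46. *Tnf*, which encodes tumour necrosis factor, stood at 139 against 35.3 CPM in VEH and 237 against 32.4 CPM in LEM, log2 ratios of 1.98 (1.68 to 2.26) and 2.87 (2.69 to 3.04). Only 27 of 87 VEH and 45 of 137 LEM members held a count, so most members had no *Tnf* count. Oncostatin M (*Osm*, 50.7 against 20.8 and 59.4 against 20.8 CPM, log2 ratios of 1.29 and 1.51) and the 4-1BB ligand *Tnfsf9* (1.42 and 1.51) were the others. *Tnfsf9* had 3 counts in 3 VEH members and 6 counts in 5 LEM members, and without its highest cell in each library its mean was 0.88 in place of 1.46. *Tgfb1* (-0.14 and 0.06), *Il15* (-0.34 and -0.25) and *Il6* (0.28 and 0.95) were not called. *Il10*, *Csf2* and *Csf3* had 0 counts in the members of both libraries.

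NF-κB targets and regulators were higher at 13 of 24 genes compared and lower at 0, with a median of 0.84. *Cd83*, a surface protein of activated antigen-presenting cells, stood at 488 against 165 CPM in VEH and 560 against 160 CPM in LEM (1.57 and 1.81). *Nfkbia*, whose IκBα product holds NF-κB in the cytoplasm and is resynthesised when NF-κB is active, stood at 534 against 306 CPM and 534 against 284 CPM (0.80 and 0.91). The stress gene *Ier3* (1.63 and 1.46), the atypical chemokine receptor gene *Ccrl2* (1.53 and 1.54), the IκB family members *Bcl3* (1.85 and 2.06) and *Nfkbid* (1.34 and 1.19), and the subunits *Relb* (0.94 in both) and *Nfkb2* (0.80 and 1.31) were higher too. The subunits of the canonical pathway were not called, with *Rela* at 0.34 and 0.14, *Nfkb1* at 0.22 and 0.42 and *Rel* at 0.15 and -0.23. The deubiquitinase gene *Tnfaip3*, a brake on the pathway, was not called either (0.44 and 0.52). The survival genes *Bcl2a1a*, *Bcl2a1b* and *Bcl2a1d* (0.62 to 1.06 in VEH and 1.35 to 1.37 in LEM) are near-identical copies, so the split of counts among them is uncertain.

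Genes of sensing upstream of NF-κB were higher only in part, at 3 of 19 compared and lower at 0. *Tlr2*, a receptor for lipoproteins, stood at 193 against 85.0 CPM and 250 against 94.9 CPM (1.19 and 1.40), and its partner *Tlr1* gave 0.76 and 0.69. *Cd14*, the co-receptor that hands ligands to TLR2 and TLR4, stood at 540 against 259 CPM and 558 against 272 CPM (1.06 and 1.04). *Tlr4* (-0.03 and -0.38) and the adaptor gene *Myd88* (-0.33 and 0.04) were not called. The list's median was 0.13 in VEH, 0.03 in LEM and -0.15 over the genes' means of both libraries, so it had no stable sign.

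Immediate early genes, which also respond to tissue dissociation, were higher at 5 of 23 and lower at 0, with a median of -0.01. *Fos* (-0.20 and -0.05), *Jun* (-0.18 and -0.40) and *Egr1* (0.31 and 0.13) did not reach 1.5-fold. The 5 higher genes were the nuclear receptor gene *Nr4a1* (3.13 and 2.497), *Egr2* (1.73 and 1.83), *Egr3* (2.83 and 1.52), the phosphatase gene *Dusp2* (1.24 and 1.64) and *Maff* (0.99 and 2.05). *Nr4a1* was counted in 11 VEH and 16 LEM members, and female cells alone gave a mean log2 ratio of 1.16 and male cells alone 3.66. *Dusp2* had a mean of 0.21 in female and 1.81 in male cells, and 0.66 without the members with 10 or more *Il1b* counts. *Egr3*, with 17 counts in 8 VEH and 7 counts in 4 LEM members, had a mean of 2.18 that was 1.25 without its highest cell in each library. With a detection minimum of 10%, 1 of 18 immediate early genes was higher, beside 1.52% of all genes compared. Heat shock genes, another sign of handling, were higher at 0 and lower at 0 of 10 (median 0.12).

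MHC class II genes, which present antigen to CD4+ T cells, were higher at 5 of 8 and lower at 0, with a median of 2.06. That median was 0.60 with a detection minimum of 10%, 1.67 for cells with at least 3 *Il1b* counts and 1.35 in male cells, beside 1.53, 2.21 and 2.22 for chemokines. *Cd74* stood at 1684 against 307 CPM in VEH and 1366 against 239 CPM in LEM, log2 ratios of 2.45 (2.37 to 2.54) and 2.52 (2.44 to 2.59), and was counted in 47 of 87 and 85 of 137 members. *H2-Aa* (356 against 52.3 and 275 against 33.9 CPM, log2 ratios of 2.77 and 3.02) and *H2-Eb1* (244 against 26.8 and 256 against 18.5 CPM, 3.18 and 3.79) rested on fewer cells. *H2-Aa* was counted in 13 VEH and 17 LEM members and *H2-Eb1* in 10 and 11, so most members had none. *H2-Ab1* (2.39 and 2.56) and *H2-DMb2* (1.48 and 1.81) were the others, while *H2-DMa*, which helps load peptides, was not called (0.82 and 0.37).

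Genes of disease-associated microglia (DAM), the state that gathers around plaques, were higher at 10 of 22 compared and lower at 0, with a median of 0.86. *Apoe*, the lipid carrier gene, stood at 2836 against 1638 CPM in VEH and 4551 against 2287 CPM in LEM (0.79 and 0.99). *Cst7*, a cystatin gene that marks this state, stood at 387 against 178 CPM and 347 against 139 CPM (1.12 and 1.32). Lipoprotein lipase *Lpl* (1.80 and 2.36), osteopontin *Spp1* (2.09 and 1.93), the phagocytic receptor gene *Axl* (2.16 and 1.77), *Itgax* (1.08 and 0.93) and galectin-3 *Lgals3* (2.72 and 2.18) were higher as well. The receptor gene *Trem2* (0.12 and 0.09), its adaptor *Tyrobp* (0.45 and 0.44) and the lysosomal gene *Cd68* (0.17 and 0.28) were not called, and *Gpnmb* had 0 counts in the members. *Clec7a* is not among the genes of the table.

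Interferon-response genes were higher at 13 of 20 and lower at 0, with a median of 1.16. The count was 6 of 20 without the highest cell of each gene, 7 of 20 without the members with 10 or more *Il1b* counts and 7 of 20 in female cells, at medians of 0.68, 0.92 and 0.74. In these settings 1.34%, 2.44% and 7.42% of all genes compared were higher. *Irf7*, the transcription factor that amplifies type I interferon, gave 1.20 and 2.10, *Oasl2* 2.08 and 2.24, and *Ifitm3*, a restriction factor gene, 1.54 and 2.32. *Ifit3* gave 1.73 and 1.43, and without its highest cell in each library the mean was 0.47 in place of 1.58. *Isg15* (0.42 and 1.80), *Bst2* (0.16 and 1.15) and *Ly6e* (-0.02 and 0.18) did not pass in VEH.

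Genes of resting, or homeostatic, microglia were higher at 0 and lower at 1 of 24 compared, with a median of -0.31. Of the 24 genes, only *Serpine2* was above the *Il1b* = 0 level in both libraries (0.33 and 0.29). *P2ry12*, the ADP receptor gene that guides processes to damage, stood at 3034 against 4213 CPM in VEH and 2644 against 4054 CPM in LEM, log2 ratios of -0.47 (-0.53 to -0.41) and -0.62 (-0.67 to -0.57). *Tmem119* stood at 1455 against 1967 CPM and 1413 against 2005 CPM (-0.43 and -0.51). *Cx3cr1*, the fractalkine receptor gene, gave -0.29 and -0.34, and the fructose transporter gene *Slc2a5* -0.58 and -0.60. These differences were the same in direction in both libraries, and none reached 1.5-fold in VEH. *Crybb1* passed it, at 245 against 424 CPM and 266 against 456 CPM (-0.79 and -0.78). *Csf1r* gave -0.14 and -0.15. Glycolysis genes (0 of 13 higher, 0 lower, median 0.37) and proliferation genes (0 of 7 higher, 0 lower, median -0.38, and 0.46 in female cells) passed in no case.

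Outside the lists, the 12 highest genes by mean ratio included *Cybb*, which encodes the catalytic subunit of the phagocyte NADPH oxidase (32.0 against 3.02 and 25.6 against 4.41 CPM, log2 ratios of 3.41 and 2.53). The inhibitory receptor genes *Cd72* (2.75 and 2.92) and *Lilrb4a* (2.35 and 2.82) were among them too. *Cybb* was counted in 10 VEH and 13 LEM members, and *Lilrb4a* in 10 and 26. This ranking asks for at least 50 counts in the members, so a rare gene can enter it through the members alone and is then likely to be high. Outside the DAM, MHC class II and interferon-response states described below, the mean was 0.50 in place of 2.58 for *Lilrb4a*. It was 1.23 in place of 2.84 for *Cd72* and 2.35 in place of 2.97 for *Cybb*. The 12 lowest held the transcription factor gene *Sox4* (128 against 258 and 167 against 307 CPM, log2 ratios of -1.01 and -0.88), *Ecscr* (98.7 against 182 and 90.7 against 150 CPM) and *Crybb1*. Histone genes (*Hist1h2ae*, *Hist1h1d* and *Hist1h2bc*), whose near-identical copies make the split of counts uncertain, and *Nr6a1os* and *Gm6277*, which are antisense to other genes, were also among the 12, with *Ralgps1*, *Tia1*, *Scamp5* and *Stx2*.

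The differences grew with the number of *Il1b* counts for some genes and not for others. From cells with 0 through 1, 2, 3 to 4, 5 to 9 and 10 or more *Il1b* counts, *Ccl4* stood at 495, 1122, 1637, 2337, 1532 and 3747 CPM in VEH and at 444, 863, 1742, 2856, 2879 and 10300 CPM in LEM. *Tnf* stood at 34.9, 53.2, 75.2, 79.8, 416 and 221 CPM in VEH and at 31.9, 56.3, 73.4, 284, 155 and 1455 CPM in LEM. For *Il1a* the values were 249, 338, 451, 546, 808 and 558 CPM in VEH and 268, 331, 339, 441, 512 and 2037 CPM in LEM. These genes were above the *Il1b* = 0 level in every class of both libraries, with some falls between neighbouring classes. *Cd74* took another course, with 213, 516, 1643, 1499, 2577 and 1541 CPM in VEH and 172, 630, 1325, 1304, 1643 and 1059 CPM in LEM, so that the classes from 2 counts upward had no steady order. *P2ry12* went from 4310 to 3813, 3424, 3003, 2542 and 2501 CPM in VEH and from 4134 to 3567, 2785, 2963, 2322 and 1536 CPM in LEM. The classes are not matched for depth, and those with 10 or more counts held 10 VEH and 11 LEM cells.

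**Figure D4:**
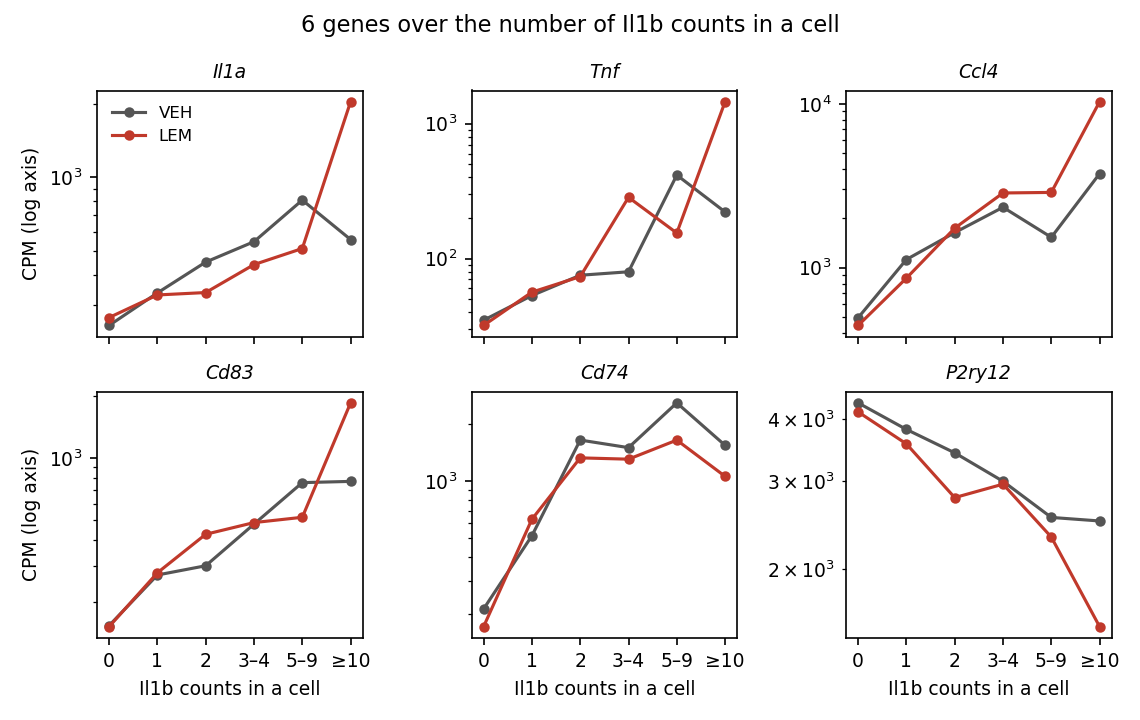
Level of 6 genes in CPM, on a log axis, in cells grouped by their number of *Il1b* counts in each library, without depth matching. *Ccl4* goes from 495 and 444 CPM at 0 *Il1b* counts to 3747 and 10300 CPM at 10 or more, while *P2ry12* goes from 4310 and 4134 to 2501 and 1536 CPM.

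The 10 cells with the most *Il1b*, 5 in each library, were unlike each other. All 10 had 0 counts of *S100a8* and *S100a9* and from 1 to 43 counts of *P2ry12*. The highest LEM cell, with 67 *Il1b* counts, had 41 counts of *Il1a*, 161 of *Ccl4* and 1 of *P2ry12*. The highest VEH cell, with 28, had 12 counts of *Il1a*, 26 of *Tnf*, 5 of *Ccl4* and 24 of *P2ry12*. The VEH cells ranked 4 and 5, with 21 and 17 *Il1b* counts, had no count of *Ccl3*, *Ccl4* or *Tnf* but 43 and 34 of *P2ry12*. High *Il1b* thus occurred both with and without counts of *Ccl3* and *Ccl4*. The other chemokines were not looked at cell by cell.

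Seen from the whole sorted population, the members were concentrated where chemokine and NF-κB genes were high. Cells were split into 5 equal groups by the summed CPM of each list within library and depth bin, with 3671 VEH or 4869 LEM cells in each group. A sum is weighted towards the most abundant genes of its list. In VEH *Il1b* = 0 cells *Ctsd*, which was not called, made up 9363 of the 23988 CPM of the DAM list. There *Tyrobp* made up 2887 CPM, *Cst7* 106 CPM and *Axl* 12.1 CPM. From the lowest to the highest chemokine group, 7, 9, 14, 11 and 46 members fell in VEH and 8, 13, 16, 29 and 71 in LEM. The share of members went from 0.191% (0.0767 to 0.392%) to 1.26% (0.921 to 1.67%) in VEH and from 0.164% to 1.46% in LEM. In the outer groups of the NF-κB list lay 8 and 45 members in VEH and 11 and 64 in LEM, of the MHC class II list 9 and 46, and 5 and 64, and of the DAM list 13 and 39, and 20 and 61. The order was the opposite for homeostatic genes, with 30 members in the lowest and 12 in the highest group in VEH and 58 and 12 in LEM. Inflammasome genes had it too, with 22 and 14, and 42 and 11. Of the 1797 CPM of that list in VEH *Il1b* = 0 cells, *Txnip* alone held 545 CPM. It stood at 439 CPM in VEH members, and at 553 CPM in LEM *Il1b* = 0 cells and 357 CPM in LEM members. Gene by gene, 0 of 13 inflammasome genes were lower, so the sums do not show that the list as a whole was low. Immediate early genes had 26 and 19 members in VEH and 41 and 27 in LEM in the outer groups.

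**Figure D5:**
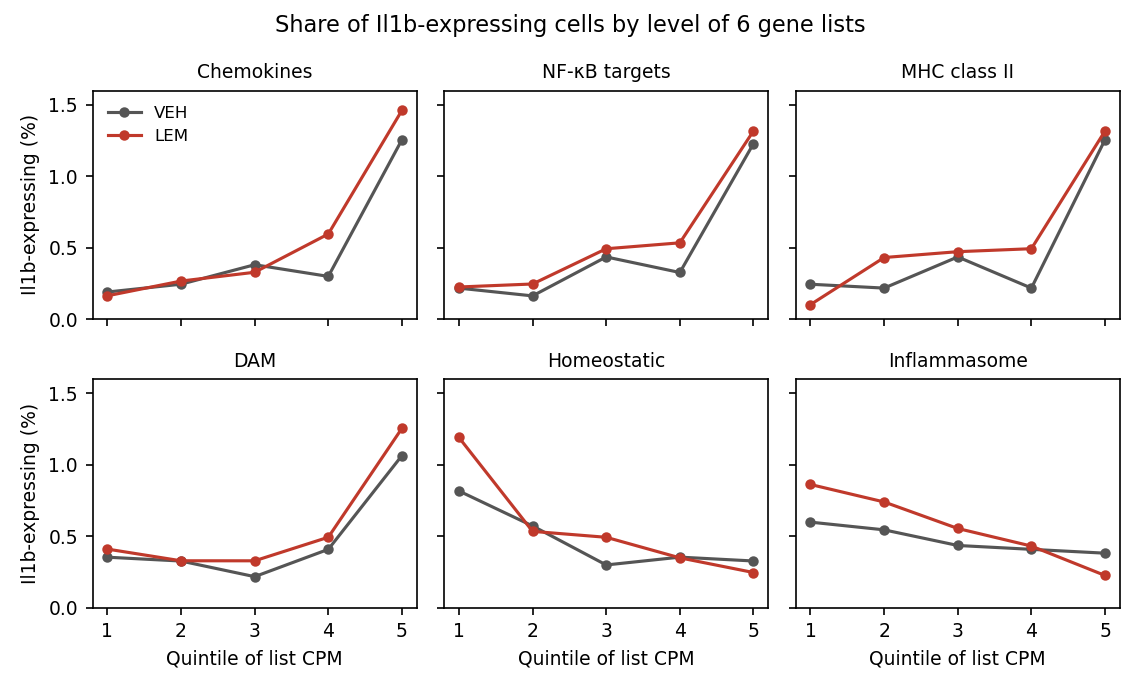
Share of *Il1b*-expressing microglia, in percent of cells, across 5 equal groups of cells ordered by the summed CPM of a gene list within library and depth bin, for 6 lists, with a line for VEH and a line for LEM. The top chemokine group holds 46 of 87 VEH and 71 of 137 LEM members, and the top homeostatic group 12 of each library.

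No single state held all members. Taking as high a cell above the 90th percentile of a list among the cells of its depth bin, which about 10% of *Il1b* = 0 cells pass, 84 of 224 members (37.5%, 31.1 to 44.2%) were high for chemokines, 84 for NF-κB genes, 80 for MHC class II (35.7%), 61 for DAM (27.2%) and 49 for interferon-response genes (21.9%). For homeostatic genes the number was 9 (4.02%) and for inflammasome genes 14 (6.25%). Cells with 1 *Il1b* count lay between, with 20.0% high for chemokines and 17.4% for MHC class II. Abundant genes of a list, such as *Ctsd* for DAM, weigh most here as well. Chemokine and NF-κB genes were both high in 56 members (25%), against 2.18% of *Il1b* = 0 cells. Of the members, 42 were high for chemokine or NF-κB genes alone, 51 for DAM, MHC class II or interferon-response genes alone, 70 for lists of both kinds and 61 (27.2%) for none of the 5, against 64.4% with none among the *Il1b* = 0 cells. In VEH these numbers were 19, 19, 25 and 24, and in LEM 23, 32, 45 and 37.

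The chemokine pattern was also present in members outside the DAM, MHC class II and interferon-response states. Among the 43 VEH and 60 LEM members that were high for none of these 3 lists, compared with *Il1b* = 0 cells of the same kind, the median log2 ratio was 1.67 for chemokines and 0.60 for NF-κB genes. *Ccl4* stood at 2.47 there, *Tnf* at 2.16, *Cd83* at 1.75 and *Il1a* at 1.14. The selection itself removes cells with high DAM, MHC class II and interferon-response genes, whose medians were 0.27, 0.56 and 0.45. Still, 4 of 19 DAM, 3 of 6 MHC class II and 4 of 17 interferon-response genes were higher here. For chemokines it was 5 of 7 and for NF-κB genes 8 of 24, beside 3.42% of all genes compared. These members were thus not free of RNA of the 3 states, with *H2-Aa* at 2.82 and *Spp1* at 1.97.

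Within the *Il1b*-expressing microglia, LEM and VEH differed at least 1.5-fold at some genes that also did so in the *Il1b* = 0 cells, *Gapdh* and *Cfap77* among them. Of 21 interferon-response genes, 12 were higher in LEM and 1 lower, with a median that was -0.08 in male members. Of 11057 genes compared, 1655 were at least 1.5-fold higher in LEM members (15%) and 1187 at least 1.5-fold lower (10.7%), around a median log2 ratio of 0.04. The list counts that follow are to be read beside these shares, and a count near them is no result about its list. Among *Il1b* = 0 cells the same limit was passed by 0.736% and 0.727% of 10735 genes. The members are 87 and 137 cells and the *Il1b* = 0 cells 17993 and 23743, and the part of cell number in this gap was not tested. Without the highest cell of each gene, 1890 were higher and 877 lower.

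*Il1a*, *Ccl2*, *Ccl3* and *Ccl4* differed less than 1.5-fold between LEM and VEH members. *Il1a* stood at 540 CPM in VEH and 518 CPM in LEM members, a log2 ratio of -0.06 (-0.24 to 0.12) that was -0.60 in female and 0.18 in male members, and *Ccl2* at 358 and 299 CPM (-0.26). *Ccl4* stood at 2202 and 2838 CPM (0.37, 0.28 to 0.45), with -0.29 in female and 0.16 in male members, and *Ccl3* at 1269 and 1501 CPM (0.24). *Tnf* stood at 139 and 237 CPM (0.77, 0.44 to 1.11), with -0.31 in female and 1.38 in male members, and without the members with 10 or more *Il1b* counts the ratio was 0.23. *Ccl12* stood at 450 and 1135 CPM, a log2 ratio of 1.34 (1.16 to 1.51) that had the same sign in female (0.56) and male (1.58) members, and -0.03 in *Il1b* = 0 cells. Of 10 chemokines compared, 4 were higher in LEM and 0 lower (median 0.48, and -0.08 in female members). The 4 were *Ccl12*, *Ccl5* (counted in 3 VEH and 9 LEM members), *Cxcl10* (3 and 8) and *Cxcl14* (1 and 8). All but *Ccl12* thus rested on few cells. *Cxcl10* and *Cxcl14* had log2 ratios of -3.42 and -0.19 in female and 4.86 and 1.12 in male members. Of 25 NF-κB genes, 5 were higher and 0 lower (median 0.14, and -0.27 in female members), near the 15% higher among all genes, and of 13 inflammasome genes 0 were higher and 0 lower (median -0.20). *P2ry12* stood at 3034 and 2644 CPM, and of 24 homeostatic genes 0 were higher and 2 lower (median -0.07), near the 10.7% lower among all genes.

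The lists that can mark handling had medians below 0 for LEM over VEH members, but above 0 in female members. Their counts stand beside 15% higher and 10.7% lower among all genes, and the lower count of immediate early genes is near that share. Of 10 heat shock genes, 0 were higher and 3 lower in LEM members, and the median was -0.17, beside -0.23 in *Il1b* = 0 cells, 0.13 for the female members and -0.41 for the male members. Of 23 immediate early genes, 1 was higher and 3 lower, and the median was -0.15 both in members and in *Il1b* = 0 cells, 0.02 for the female members and -0.17 for the male members. The mice of each treatment were pooled into 1 library, so handling and treatment cannot be told apart in these ratios.

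*Il1rn*, which encodes the interleukin-1 receptor antagonist, had 1 count in VEH members and 85 counts in LEM members. The LEM counts came from 4 cells, 41 of them from 1 cell, and the log2 ratio of 5.72 had an interval of 3.20 to 11.04. In *Il1b* = 0 cells the ratio was 1.17. *Il12b*, which encodes a subunit of interleukin-12 and interleukin-23, had 0 counts in VEH members and 70 in LEM, from 3 cells with 34 in the highest. Neither rests on enough cells to describe the members at large.

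Interferon-response genes were higher in LEM at 12 of 21 compared and lower at 1, with a median of 0.66 against 0.30 for the same genes in *Il1b* = 0 cells. The count depended on a few cells. It was 19 of 21 (median 1.28) without the members with 10 or more *Il1b* counts, beside 15.4% higher among all genes. Without the highest cell of each gene it was 17 of 21 (1.18), beside 17.8%. In the class with 10 or more *Il1b* counts the list went the other way, with 3607 CPM in 10 VEH cells and 1362 CPM in 11 LEM cells. *Isg15*, a ubiquitin-like modifier gene, had 23 counts in 9 VEH members and 115 counts in 25 LEM members, a log2 ratio of 1.63 (0.97 to 2.34) against 0.29 in *Il1b* = 0 cells. *Bst2* (tetherin) stood at 164 and 350 CPM (1.09, 0.80 to 1.40) against 0.10, and *Ifitm3* at 104 and 253 CPM (1.28, 0.92 to 1.66) against 0.54. *Ifit1*, another gene of the list, had 24 and 22 counts, a log2 ratio of -0.82 (-1.72 to 0.08). The sexes differed, with a list median of 0.97 in female and -0.08 in male members. The 0.30 of *Il1b* = 0 cells is over both sexes together. There too *Isg15*, 1 gene of the list, had 0.69 in female and -0.02 in male cells. Whether the ratios of members and *Il1b* = 0 cells differ was not tested.

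DAM genes were higher in LEM at 7 of 22 compared and lower at 0, beside 15% higher and 10.7% lower among all genes. The median was 0.30 (0.05 in female and 0.19 in male members) against 0.14 in *Il1b* = 0 cells. Of the 7, *Spp1* had a log2 ratio of -0.95 in female and 0.68 in male members, *Igf1* -2.92 and 1.00, and *Ch25h* 3.57 and -2.05, so these 3 had no common sign in the sexes. *Apoe* stood at 2836 and 4551 CPM (0.68, 0.61 to 0.76), near its ratio of 0.59 in *Il1b* = 0 cells. *Csf1*, the gene of the ligand of CSF1R, stood at 103 and 172 CPM (0.74, 0.36 to 1.14) against -0.05. MHC class II genes were higher at 0 and lower at 1 of 8 compared (median -0.34, 0.10 in male members and -0.40 in *Il1b* = 0 cells), the lower gene being *H2-DMa* at 164 and 87.4 CPM. Proliferation genes were lower at 7 of 11 and higher at 0 (median -0.90), but few cells held them and the median was 0.38 without the members with 10 or more *Il1b* counts, *Mki67* having 24 counts in 3 VEH members and 9 counts in 3 LEM members.

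Of the genes with the largest ratios and the same sign in both sexes, several had a like ratio in *Il1b* = 0 cells. *Gapdh*, a glycolytic enzyme gene, stood at 427 and 1215 CPM in members (1.51, 1.33 to 1.69) and at 302 and 723 CPM in *Il1b* = 0 cells (1.26). *Cfap77*, a cilia and flagella associated gene, stood at 591 and 127 CPM (-2.22, -2.49 to -1.95) and at 466 and 131 CPM (-1.83). The tubulin gene *Tubb2a* gave -1.59 and -1.79, the heme-binding protein gene *Hebp1* -1.33 and -0.92, and *Ccl5* 2.89 (4 counts in 3 VEH members and 48 in 9 LEM members) and 2.11. *Ly6e*, an interferon-response gene, gave 1.13 and 0.97. Others were near 0 in *Il1b* = 0 cells, with *Nol4l* at 1.73 and -0.08, *Ipo4* at 1.80 and 0.14, *Cyth3* at 1.604 and -0.02 among the higher genes, and *Psd4* at -1.28 and 0.05 and *Sfxn1* at -1.17 and -0.01 among the lower. The remaining genes of this ranking were *Snhg20*, *Cox6a2*, *Nip7* and *B930036N10Rik* (antisense to another gene) on the higher side, and *Hist1h2ao*, *Adcy9*, *Il33*, *Psmg4* and *Chsy1* on the lower, with log2 ratios of 1.499 to 2.24 and -1.62 to -1.20. *Il33* had 36 counts in VEH and 23 in LEM members (-1.34, -2.16 to -0.55), with -0.31 in female and, from 24 and 2 counts, -4.05 (-7.17 to -2.04) in male members.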

How the data were processed

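The libraries were 10x 5′ single-cell RNA libraries of the sorted cells. The authors aligned and counted the reads with Cell Ranger 8.0.0 on mm10, named SoupX for free RNA, and filtered cells by genes, counts and mitochondrial share, and the deposited table holds whole counts without normalisation (32285 genes, at least 501 genes per cell, 0 unmatched columns). Whether SoupX's correction is part of these counts could not be told. The paper also describes leaving out clusters low in microglial markers and high in those of other cell types. The counts limit precision through the number of molecules, so intervals cover counting error only. The members, gene lists, thresholds and comparisons were chosen with earlier results of these data known.

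Log2 ratios of members over *Il1b* = 0 cells came from CPM within each library. For these the *Il1b* = 0 cells were weighted to the members' distribution over 10 depth bins. A list's ratio is the median over its genes of the mean of the 2 libraries' log2 ratios. LEM and VEH members were compared by pooled CPM with exact conditional intervals. Shares have Clopper-Pearson intervals, sums of counts exact Poisson intervals. Cells with 1 *Il1b* count stood apart. Thinning to 2000 counts left out 1305 VEH and 1215 LEM shallower cells. Scrublet (scanpy 1.11.5) was used with the threshold of the LEM library (0.321) in both, since the automatic threshold for VEH marked 0 cells, and doublets were kept and left out as an alternative. Sex was called per cell from *Xist* and Y-linked counts. Named genes were the 12 highest and 12 lowest of members over *Il1b* = 0 cells and the 10 highest and 10 lowest of LEM over VEH, with at least 50 counts in members and the same sign in both libraries and sexes, and any gene of the lists with its list's counts.

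On simulated counts of 5400 genes, drawn as Poisson and so covering counting error only, with 200 changed 2-fold in the first comparison, 97% of the changed and 0% of the other genes were called. The 5400 genes were those above a minimum level in the *Il1b* = 0 cells of both libraries. Rarer genes among the 11008 compared, such as *Cxcl10*, *Ccl7* and *Cybb*, were left out, so these shares do not cover them. Scripts ran in Python 3.11.15 (scipy 1.17.1 for intervals, pandas 2.3.3 and numpy 2.4.6 for tables, matplotlib 3.10.9 for figures). Promoter sequences came from RefSeq on GRCm38.p6, and gene positions from GENCODE M21.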

Additional observations from a re-analysis of the deposited data

Results flagged for a closer look

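Ratios of LEM over VEH within *Il1b*-expressing microglia took opposite signs in female and male members, with counting intervals that excluded 0 on either side, for 3 of the genes for which intervals by sex were computed. Such intervals were computed for selected genes and not for all genes of the lists. *Cxcl10* had a log2 ratio of -3.42 in female and 4.86 in male members and was counted in 3 VEH and 8 LEM members in all. *H2-Aa* had -0.44 and 0.85, and *Ccl4* -0.29 and 0.16. Each value rests on 1 library per treatment, and the difference between the sexes was not tested.

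The limit on border macrophage genes left out 5 cells with at least 2 *Il1b* counts, 1 in VEH and 4 in LEM. They were 4.46% (1.47 to 10.1%) of the 112 cells that held 5 or more border macrophage counts, whose median depth was 8491 counts, and they had a median of 12742 counts themselves.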

How the results depend on the processing

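The log2 ratio of the share of members stayed above 0 under all 13 alternatives. No paired analysis was possible because each treatment had 1 library, and no replicate could be left out. Of members over *Il1b* = 0 cells, 294 genes were higher and 260 lower. The counts moved by over 1.5 times with at least 3 *Il1b* counts (477 and 483), with a detection minimum of 10% (118 and 69), in female (815 and 391) and male cells alone (473 and 547), without the highest cell of each gene (148 and 813), and, on the higher side, with no detection minimum (6565). Fewer genes are tested with the stricter minimum and more with none, leaving out the highest cell of the members lowers a ratio by construction unless no count is left, and the cause was not tested for the rest. For LEM over VEH the detection minimum of 10% gave 718 and 483. Of the list medians under the alternatives, 11 of 195 (members over *Il1b* = 0 cells) and 19 of 196 (LEM over VEH) turned sign. Those beyond 1.5-fold as first computed were the interleukin-1 family in members outside the DAM, MHC class II and interferon-response states (-0.11), interferon-response genes of LEM over VEH in male cells (-0.076), and proliferation genes of LEM over VEH without members with 10 or more *Il1b* counts (0.38). Among the others, chemokines (-0.08) and NF-κB genes (-0.27) of LEM over VEH turned in female cells and MHC class II genes in male cells (0.10), while Toll-like receptor (0.16) and proliferation genes (0.46) of members over *Il1b* = 0 cells turned in female cells. The cause was not tested. The alternatives without the highest cell, without the highest *Il1b* class and outside the 3 states were added after the data were seen. Depth limits the shares: cells with 1 *Il1b* count outnumbered the members, and most members sit at 2 or 3 counts.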
